A study of Homo sapiens with 48 samples.

Results

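The response to FHT-1015 after 4 h was compared among 3 uveal melanoma cell lines, 92-1, MEL202 and MP41, with 18 of the 48 samples of the series. The 18 are the samples of the FHT-1015 experiments at 4 h, and they form 6 groups of 3 replicates: each line with FHT-1015 or with the solvent DMSO. Every sample carries the genotype label WT, and the labels give no dose. Each line has DMSO samples of its own, and line and experiment cannot be told apart. Replicates are labelled biological without saying which cultures they came from, so the p-values measure only the spread between these samples, which may be technical. A further 18 samples of the same lines and treatments at 24 h, which played no part in the rule for the 4 h differences, show what became of the early differences. The question was which early changes were stronger in 1 line than in the others.

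FHT-1015 inhibits SMARCA4 and SMARCA2, the alternative ATPases that drive BAF chromatin remodelling complexes. These complexes move nucleosomes and keep enhancers and promoters accessible to transcription factors. Uveal melanoma arises from melanocytes of the eye, cells whose identity rests on the transcription factors SOX10 and MITF, and most tumours carry mutations in the Gq pathway, which feeds protein kinase C and the MAPK cascade.

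The 18 libraries held between 11394088 and 26355425 reads in genes, and 16863 genes passed the filter on low counts. The 8 melanocytic markers had reads in every group and summed to between 6358 and 20370 CPM, the TMM-normalised count scaled to library size, in a library. Fibroblast markers summed to at most 41.9 CPM, in MP41, and those of leukocytes, epithelial cells and endothelial cells to at most 5.08 CPM. The spread between replicates differed among lines: the biological coefficient of variation, the scatter left after counting noise, was 0.114 in 92-1, 0.373 in MEL202 and 0.11 in MP41 when each line was fitted alone, and 0.239 in the joint fit. MEL202 FHT-1015 replicate 2 held reads in 17592 genes against 20023 in the next lowest library. RNA of 8 genes typical of liver, chosen after their values were seen, summed to 132.6 CPM in 92-1 FHT-1015 replicate 2 and to at most 1.02 CPM in the other 5 libraries of 92-1, beside 50.4 to 109 CPM in MEL202 and 10.4 to 15.6 CPM in MP41. The part of these features in the results was tested only by leaving out each library.

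In the joint fit of the 3 lines, most of the early changes were called in 92-1. The effect of a line is the log2 ratio of FHT-1015 to DMSO, and it differed among the 3 lines for 118 of 16863 genes (0.7%; edgeR's quasi-likelihood F-test, adjusted p under 0.05), of which 113 were protein-coding. Among the 118, 92-1 had the largest effect for 111, downward for 94 and upward for 17. The other 7, named after their values were seen, were TRIM63, TPRN, IFI16 and the low-count RNA AP001830.1, most lowered in MEL202, TBX3, most raised in MEL202, and HSPA2 and BAMBI, with the largest estimates, upward, in MP41. The effects of 92-1 and MP41 differed for 179 genes (1.06%), more negative in 92-1 for 148 and more positive for 31. Those of 92-1 and MEL202 differed for 39 (0.231%), and those of MEL202 and MP41 for TRIM63 alone (0.00593%). For 90 of the 118 genes the MEL202 effect lay between the other two.

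A gene was called stronger in a line when its effect passed the test there, both differences to the other lines passed with the same sign, and the effect was the largest in size. There were 34 such genes in 92-1 (0.202%), 31 lower and 3 higher with FHT-1015. The main edgeR fit called none in MEL202 or MP41 and none weaker in 1 line than in both others. At an unadjusted p under 0.05 the same rule found 556 genes in 92-1, 127 in MEL202 and 39 in MP41. DESeq2 called 113 in 92-1, 3 in MEL202 and 1 in MP41, and limma-voom 34, 0 and 0. Genes weaker in 1 line numbered 204 at an unadjusted p under 0.05, 179 of them weaker in MP41, and 13 by DESeq2, 12 of them in MP41. Under other settings edgeR called such genes too: 5 without the filter on low counts and 2 with the 24 h libraries in the same fit. With offsets for GC content and length it called 11, of which 4 were weaker in 92-1 and 7 in MP41. For 23 of the 34 genes limma-voom also called both differences. Of the 34, 21 passed the test in neither other line, 11 also passed in MEL202, 6 in MP41 and 4 in all 3 lines. With MP41 fitted alone, 14 of the 34 were called there in the same direction, against 0.665% of all genes called higher and 1.73% called lower. Leaving out 1 library of 92-1 left 16 to 22 genes in the class, 1 of MP41 left 23 to 33, and 1 of MEL202 gave 27 to 61, the highest without MEL202 DMSO replicate 1. Likewise the count of 118 fell to between 45 and 63 without 1 library of 92-1 and to between 58 and 75 without 1 of MP41, and it was 102 to 197 without 1 of MEL202. Of the 34 genes, 16 stayed in the class whichever library was left out. The FHT-1015 and DMSO replicates did not overlap for 34 of the 34 genes in 92-1, and were apart in the same direction for 14 in MEL202 and 18 in MP41. Over all genes tested they were apart downward for 21.4%, 5.07% and 10.4% in 92-1, MEL202 and MP41, and upward for 19.9%, 4.17% and 9.52%, and the 92-1 replicates also entered the rule that defined the class.

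**Figure D1:**
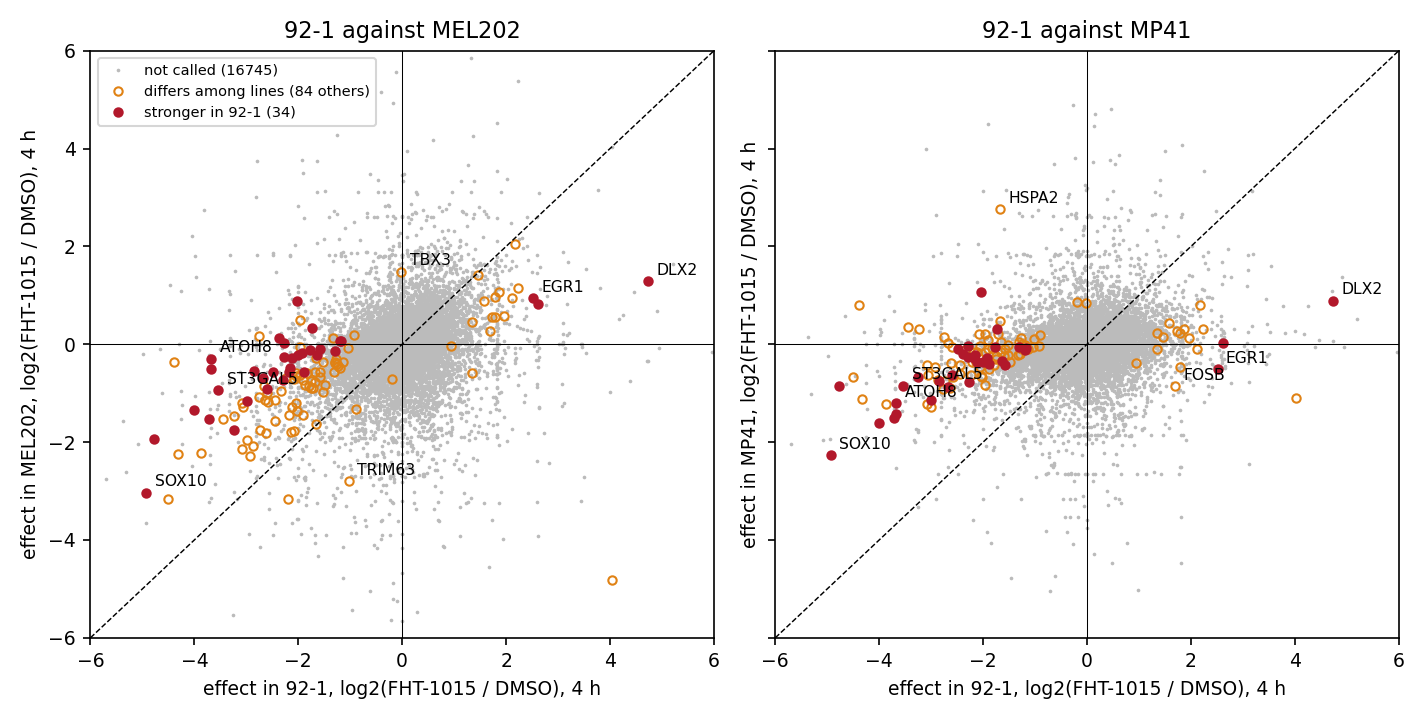
Log2 effect of FHT-1015 at 4 h in 92-1 (horizontal axis) against MEL202 (left) and MP41 (right). Grey points are genes not called, open orange points the 84 other genes that differed among lines, and filled red points the 34 genes stronger in 92-1, all of which lie between the horizontal line and the dashed line of equal effects or across zero; 2 genes lie beyond the axes.

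The contrast of 92-1 with MP41 rested on lines of equal precision. Fitted alone, the 6 libraries of 92-1 gave 1958 higher and 2450 lower genes (13.3% and 16.7% of those tested), and those of MP41 gave 96 and 250 (0.665% and 1.73%), with median standard errors of 0.132 and 0.131 on the log2 scale. With the 12 libraries of these 2 lines in a fit of their own, chosen after the spread of MEL202 was seen, the effects differed for 1172 genes (7.29%), including all 179. Among the 1143 of them that had a value in both single-line fits, the effect was larger in 92-1 for 1094 and in MP41 for 49. MEL202 allowed no such statement. Its 6 libraries alone gave 0 changed genes in edgeR (589 at an unadjusted p under 0.05; limma-voom on the 18 libraries called 108), with a median standard error of 0.37. Its difference to 92-1, fitted alone, was called for 7 genes (0.0438%), all among the 34, including ATOH8, ST3GAL5, DLX2, C1orf116, PFKFB2 and TNS3. For the rest of the 34, SOX10, EGR1, PIK3IP1 and ERBB3 among them, the difference to MEL202 was called in the joint fit and not in the fit of those 2 lines. The difference of MEL202 to MP41, fitted alone, was called for 0 genes in edgeR (466 at an unadjusted p under 0.05).

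SOX10, the transcription factor of neural crest and melanocyte identity, fell in all 3 lines and fell furthest in 92-1. Its DMSO level was alike in the lines: 416, 477 and 469.6 CPM in 92-1, 659, 476 and 397 CPM in MEL202, and 394, 466 and 426 CPM in MP41. With FHT-1015 it stood at 13.7, 12.1 and 19.1 CPM in 92-1, at 56.1, 80.2 and 51.0 CPM in MEL202, and at 76.6, 104 and 87.5 CPM in MP41. The treated libraries of 92-1 were thus below every treated library of the other lines. The effects were -4.93 ± 0.25 (SE), -3.03 ± 0.23 and -2.26 ± 0.22 on the log2 scale, and they differed at an adjusted p of 0.000628 (edgeR's quasi-likelihood F-test). At 24 h its effects were -4.66, -5.46 and -4.83. Exons of POLR2F overlap SOX10 on the other strand. Unstranded reads from that overlap cannot be assigned to either gene and may be missing from the counts of SOX10.

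ERBB3, a receptor for neuregulins that melanocytes need, also had its largest effect in 92-1, where it fell from 174, 129 and 144 CPM to 23.9, 25.1 and 20.8 CPM. In MP41 it stood at 102, 112 and 102 CPM with DMSO and at 46.8, 71.2 and 53.3 CPM with FHT-1015, and the MEL202 replicates of the treatments overlapped. The effects were -2.68 ± 0.28 (SE), -0.69 ± 0.27 in MEL202 and -0.88 ± 0.27 in MP41 (adjusted p = 0.0212 for the difference among lines, edgeR's quasi-likelihood F-test), and by 24 h they had reached -2.96, -2.68 and -2.33. With MP41 fitted alone its fall there was called too (adjusted p = 0.00532, edgeR). The call for ERBB3 among lines was lost without 6 of the 18 libraries, with an adjusted p of up to 0.0956, and ERBB3 stayed in the class of 34 with 5 of the 18 left-out libraries. Its difference to MEL202 was not called with those 2 lines fitted alone (adjusted p = 0.236, edgeR) or by limma-voom (0.0579). MITF did not pass the test in any line by edgeR, and limma-voom with quality weights called it lower in 92-1 (adjusted p = 0.0292) and MP41 (0.024): its effects were -0.32 ± 0.22 (SE) in 92-1, -0.02 ± 0.21 in MEL202 and -0.55 ± 0.22 in MP41, with adjusted p = 0.927 for a difference among lines. Of 26 melanocyte lineage and pigment genes, 7 were called lower in 92-1 (5.68% of all genes tested), 3 in MEL202 (1.32%) and 1 in MP41 (0.107%), none was called higher, and SOX10 and ERBB3 differed among lines. The median effect over the 26 was -0.38, -0.10 and -0.12, beside 0.00, -0.03 and 0.01 over all genes.

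**Figure D2:**
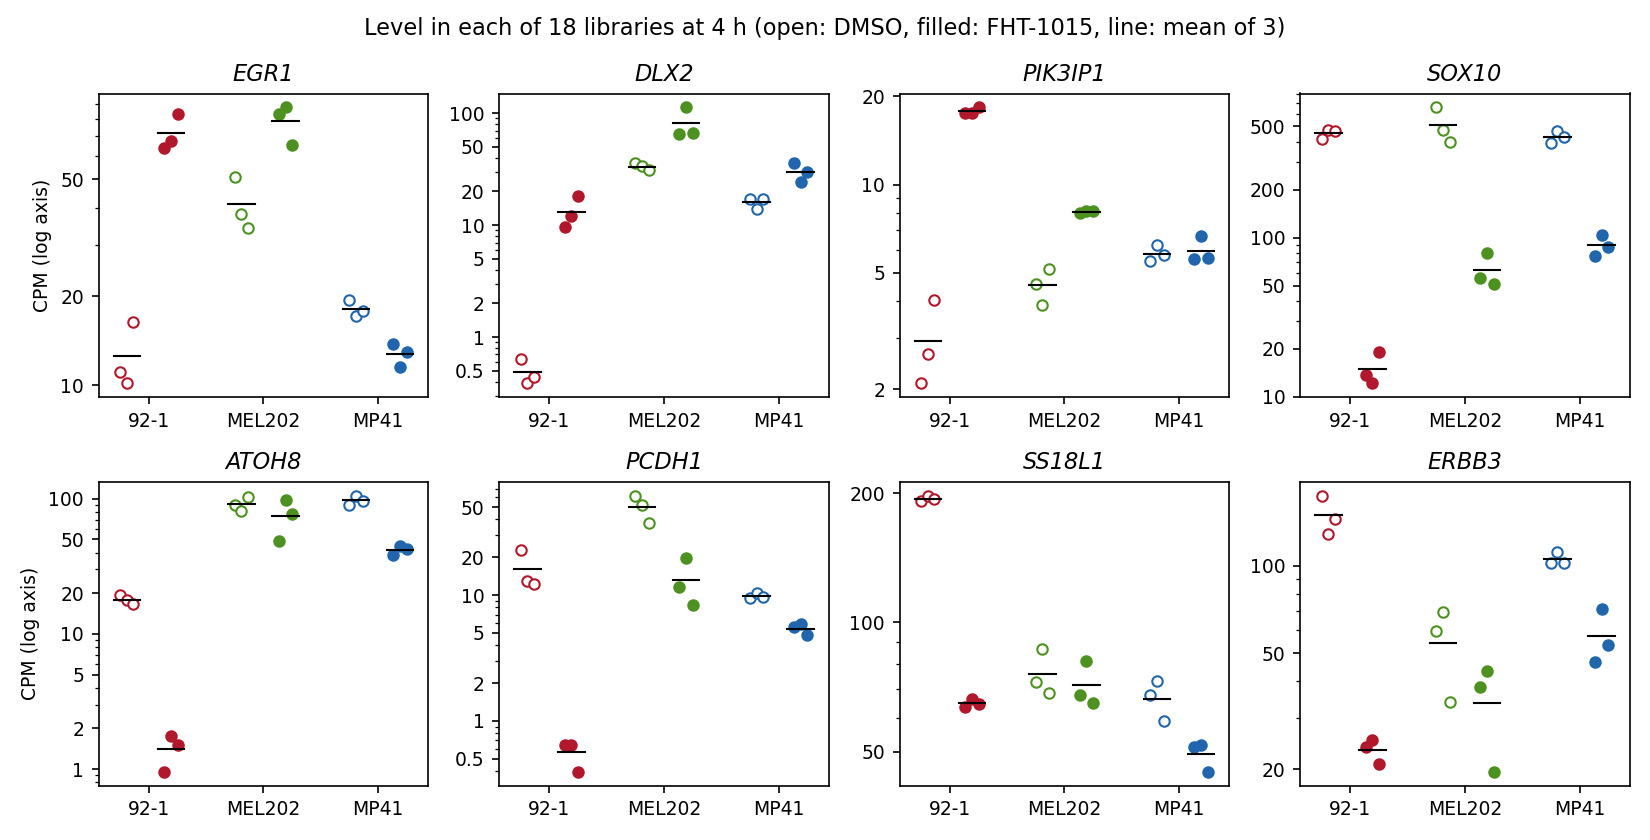
Normalised level (CPM, log axes that differ between panels) of 8 genes stronger in 92-1 in each of the 18 libraries at 4 h; open points are DMSO, filled points FHT-1015, and black lines the mean of 3. EGR1, DLX2 and PIK3IP1 rise in 92-1, the other 5 fall, and the treated 92-1 libraries lie apart from their DMSO libraries in every panel.

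In the joint fit 3 genes rose more in 92-1 than in both other lines: EGR1, DLX2 and PIK3IP1. With 92-1 and MEL202 fitted alone, that difference was called for DLX2 (adjusted p = 0.0148, edgeR) and not for EGR1 (0.224) or PIK3IP1 (0.138), and limma-voom did not call it for PIK3IP1 (0.0691). EGR1 encodes a zinc finger transcription factor that growth signals switch on within minutes. It stood at 11.1, 10.1 and 16.4 CPM with DMSO and at 63.7, 67.5 and 83.5 CPM with FHT-1015 in 92-1. In MEL202 it went from 50.7, 38.2 and 34.2 CPM to 83.4, 87.7 and 65.1 CPM, and in MP41 from 19.4, 17.1 and 17.9 CPM to 13.8, 11.5 and 13.0 CPM. In MP41 the treated libraries thus lay below all DMSO libraries, but the effect of -0.51 ± 0.20 (SE) did not pass the test in the joint fit (adjusted p = 0.875, edgeR), against 2.51 ± 0.21 in 92-1 and 0.94 ± 0.20 in MEL202. With MP41 fitted alone, the effect there was -0.51 ± 0.12 (SE) and narrowly missed the threshold (adjusted p = 0.0512, edgeR). The effect differed among lines at an adjusted p of 0.00021. EGR1 left the class of 34 without 92-1 DMSO replicate 1 or 2 or 92-1 FHT-1015 replicate 2 or 3.

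DLX2, a homeobox factor of forebrain and neural crest, was close to silent in untreated 92-1, with 11, 7 and 7 reads (0.64, 0.39 and 0.44 CPM), and stood at 9.57, 11.96 and 18.2 CPM with FHT-1015. The other lines had more of it at the start: it went from 35.7, 33.5 and 30.9 CPM to 65.1, 113 and 66.5 CPM in MEL202 and from 17.3, 14.1 and 17.2 CPM to 36.1, 24.3 and 29.9 CPM in MP41. The larger effect in 92-1, 4.74 ± 0.34 (SE) against 1.29 ± 0.24 and 0.89 ± 0.25, ended at a lower level than in the other lines (adjusted p = 0.000337, edgeR). With MP41 fitted alone the rise there was called too (0.88 ± 0.15 (SE), adjusted p = 0.0102). PIK3IP1, a membrane protein that dampens PI3 kinase, rose from 2.10, 2.65 and 4.03 CPM to 17.5, 17.6 and 18.3 CPM in 92-1 and went from 4.58, 3.90 and 5.16 CPM to 7.97, 8.09 and 8.10 CPM in MEL202. In MP41 its 3 libraries of each treatment overlapped, between 5.47 and 6.68 CPM. The effects were 2.61 ± 0.22 (SE), 0.82 ± 0.21 and 0.04 ± 0.21 (adjusted p = 0.000767 for the difference, edgeR), and PIK3IP1 left the class without 92-1 DMSO replicate 1 or 2. All 3 genes had their lowest DMSO level in 92-1.

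EGR1 is one of the immediate early genes, which respond to signals without new protein synthesis. Of the 27 tested, 9 were called higher in 92-1 (2.29% of all genes), 5 in MEL202 (0.723%) and 2 in MP41 (0.0474%), and 4, 2 and 0 were called lower (5.68%, 1.32% and 0.107%). The median effects were 0.38, -0.04 and -0.04. Besides EGR1, FOSB and FOS differed among lines, 3 of the 27 beside 0.7% of all genes; both encode partners of JUN in the AP-1 factor. FOSB went from 3.32, 3.14 and 5.04 CPM to 11.3, 12.2 and 13.6 CPM in 92-1 and from 2.61, 2.67 and 2.84 CPM to 1.57, 1.37 and 1.53 CPM in MP41, so the groups separated in opposite directions. FOS went from 13.5, 13.9 and 12.2 CPM to 23.1, 26.0 and 27.0 CPM in 92-1 and from 28.6, 22.6 and 22.3 CPM to 19.6, 18.6 and 18.4 CPM in MP41. The MP41 effect passed the test for neither gene: the effects were -0.86 ± 0.24 (SE) for FOSB and -0.38 ± 0.18 for FOS, against 1.69 ± 0.22 and 0.94 ± 0.18 in 92-1. In the fit of 92-1 and MP41 alone, 7 of the 27 genes had a more positive effect in 92-1 and 4 a more negative one, beside 2.36% and 4.93% of all genes.

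The 250 bases before the starts of 4 genes that rose in 92-1 with a more positive effect there than in MP41 are shown; they were picked among those that hold the TGACGT motif (RefSeq, GRCh38.p14, 5′ to 3′ on the strand of the gene). Capitals mark TGACGT on either strand, the core of the cAMP response element, and the CArG box on either strand, the site of serum response factor. The windows are chr5:138465229-138465478 (plus strand) for EGR1, chr19:45467746-45467995 (plus) for FOSB, chr14:75278578-75278827 (plus) for FOS and chr2:172102901-172103150 (minus) for DLX2.
EGR1: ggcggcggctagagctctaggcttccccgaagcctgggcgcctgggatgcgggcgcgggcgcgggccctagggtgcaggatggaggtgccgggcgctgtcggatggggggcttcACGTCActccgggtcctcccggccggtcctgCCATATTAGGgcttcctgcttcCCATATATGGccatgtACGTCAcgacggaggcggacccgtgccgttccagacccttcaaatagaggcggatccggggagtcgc
FOSB: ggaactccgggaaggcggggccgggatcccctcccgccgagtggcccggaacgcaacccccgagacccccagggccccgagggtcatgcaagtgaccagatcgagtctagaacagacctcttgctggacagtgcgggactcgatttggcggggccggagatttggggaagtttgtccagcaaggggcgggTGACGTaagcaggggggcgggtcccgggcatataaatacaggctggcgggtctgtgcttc
FOS: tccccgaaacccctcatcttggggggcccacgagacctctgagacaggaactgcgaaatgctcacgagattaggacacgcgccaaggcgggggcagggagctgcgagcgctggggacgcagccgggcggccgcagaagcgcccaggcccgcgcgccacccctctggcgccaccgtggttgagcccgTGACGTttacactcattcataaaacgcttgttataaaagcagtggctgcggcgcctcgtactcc
DLX2: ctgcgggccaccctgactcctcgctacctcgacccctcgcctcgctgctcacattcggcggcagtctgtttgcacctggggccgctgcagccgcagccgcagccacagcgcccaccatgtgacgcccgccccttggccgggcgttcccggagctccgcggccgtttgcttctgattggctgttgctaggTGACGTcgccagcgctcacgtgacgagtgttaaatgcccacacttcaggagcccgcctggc
EGR1 holds TGACGT at 2 places and the others at 1, by choice of the windows, and EGR1 also holds 2 CArG boxes. The window of PIK3IP1, which also rose most in 92-1, holds no TGACGT. Among the 118 genes, 18 had a more positive effect in 92-1 than in MP41. Windows were found for 14 of these, and 6 held TGACGT (42.9%): EGR1, FOSB, FOS, DLX2, PLK2 and GEMIN8. Over all 11053 tested genes with a window the share was 12.4%. In the larger set of 379 genes with a more positive effect in 92-1 in the fit of the 2 lines alone, 43 of 280 windows held it (15.4%), and in the 793 with a more negative effect 64 of 565 (11.3%). The CArG box stood in 2.5% and 3.36% of these windows, against 1.51% of all. These are descriptions of letters in a window, not of binding.

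Other outputs of the MAPK cascade moved in both directions in 92-1. SPRY2, an inhibitor of receptor tyrosine kinase signalling that the cascade itself induces, rose from 55.3, 53.1 and 53.3 CPM to 161, 157 and 167 CPM in 92-1. It went from 35.2, 41.6 and 43.4 CPM to 72.2, 70.5 and 79.9 CPM in MEL202 and from 122, 112 and 109 CPM to 156, 155 and 155 CPM in MP41. The effects, 1.58 ± 0.13 (SE), 0.89 ± 0.13 and 0.44 ± 0.13, differed among lines (adjusted p = 0.0088, edgeR), and the treated groups did not overlap the DMSO groups in any line. Of the 19 MAPK output genes tested, 4 were called higher and 5 lower in 92-1, 4 and 2 in MEL202, and 1 and 0 in MP41, beside 2.29% and 5.68%, 0.723% and 1.32%, and 0.0474% and 0.107% of all genes. CCND1, which encodes cyclin D1, and the phosphatase gene DUSP4 were among those called lower in 92-1, at -1.38 ± 0.25 (SE) and -1.70 ± 0.19. SPRY4 went the other way round: its effect was -1.01 ± 0.25 (SE) in MP41 and -0.09 ± 0.25 in 92-1, and it was called lower in MP41 with the line fitted alone.

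**Figure D3:**
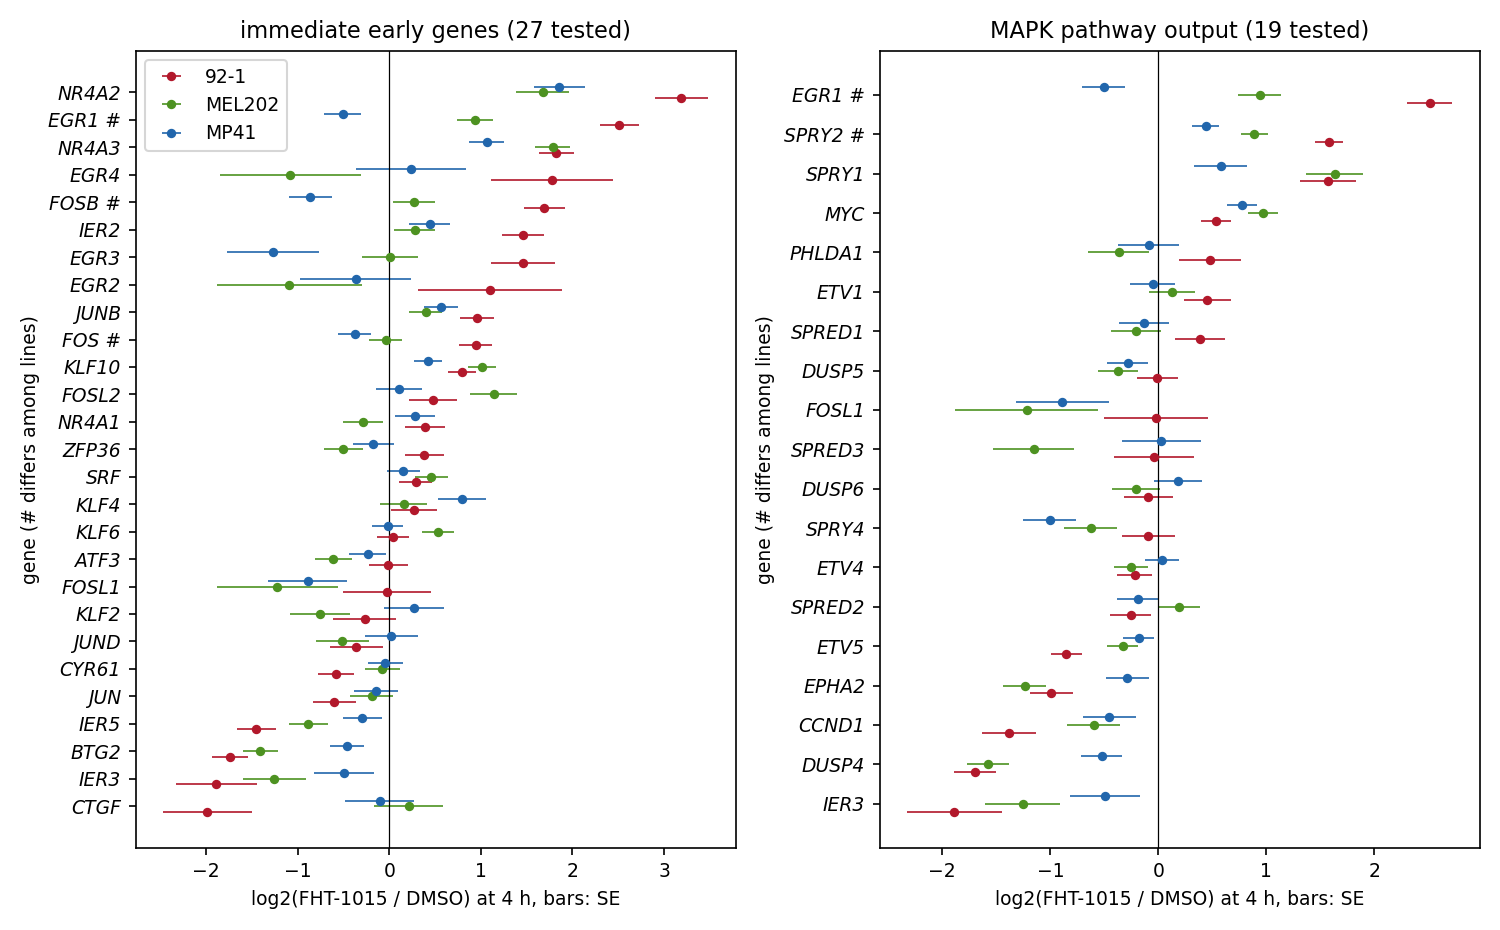
Log2 effect of FHT-1015 at 4 h with its SE in 92-1 (red), MEL202 (green) and MP41 (blue) for the 27 immediate early genes and the 19 MAPK output genes tested; # marks genes whose effect differs among lines. EGR1, FOSB and FOS lie right of zero in 92-1 and left of it in MP41, while NR4A2, NR4A3 and MYC lie right of zero in all 3 lines.

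The largest group stronger in 92-1 consisted of genes that fell. ATOH8, a basic helix-loop-helix factor that responds to bone morphogenetic proteins, fell from 19.3, 17.7 and 16.6 CPM to 0.952, 1.75 and 1.51 CPM in 92-1. In MP41 it went from 89.6, 105 and 96.7 CPM to 38.6, 44.8 and 42.6 CPM, and in MEL202 the groups overlapped, between 80.9 and 103 CPM with DMSO and between 48.7 and 97.3 CPM with FHT-1015. The effects were -3.67 ± 0.26 (SE), -1.21 ± 0.21 in MP41 and -0.29 ± 0.21 in MEL202 (adjusted p = 0.00021 for the difference, edgeR). At 24 h ATOH8 was still called lower in 92-1 and MP41, at -2.90 and -1.15, and was called higher in MEL202, at 1.17. Of the 18 genes tested from the list of bone morphogenetic protein and TGF-beta responses, 2 were called higher and 3 lower in 92-1, 1 and 1 in MEL202 and 0 and 2 in MP41, beside the same shares of all genes as for the MAPK list (2.29% and 5.68%, 0.723% and 1.32%, 0.0474% and 0.107%). ATOH8 and BAMBI, a decoy receptor of this pathway, differed among lines.

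ST3GAL5, the synthase of the ganglioside GM3, is the neighbour of ATOH8 and also fell most in 92-1. It went from 15.5, 13.2 and 14.0 CPM to 1.21, 1.48 and 0.920 CPM in 92-1, from 8.71, 10.4 and 12.4 CPM to 4.19, 5.78 and 6.41 CPM in MEL202, and from 13.0, 11.5 and 11.9 CPM to 5.88, 7.41 and 6.96 CPM in MP41. From like starting levels, the lowest end level was that of 92-1, with effects of -3.54 ± 0.24 (SE), -0.94 ± 0.21 and -0.84 ± 0.21 (adjusted p = 0.000337, edgeR). The neighbours were not called together in the other lines in the joint fit. MEL202 had ST3GAL5 called lower and not ATOH8 (adjusted p = 0.0232 and 0.63, edgeR), and MP41 the reverse (0.182 and 0.0266). With MP41 fitted alone both were called lower there. ATOH8 (chr2:85751344-85788066, plus strand) and ST3GAL5 (chr2:85837120-85905199, minus strand) lie 49.1 kb apart in GENCODE 29 on GRCh38, with no tested gene between them. A second pair among the 34 is C1orf116, on the minus strand of chromosome 1, and PFKFB2, on the plus strand, which start 1.61 kb apart. PFKFB2 makes an enzyme that sets the level of fructose 2,6-bisphosphate, an activator of glycolysis. Another pair, PIK3IP1 and EIF4ENIF1, lies within 144 kb on chromosome 22 with 2 tested genes between them, and its members moved in opposite directions. No other 2 of the 34 genes lay within 200.0 kb of each other.

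PFKFB2 fell from 183, 148 and 145 CPM to 41.3, 29.5 and 20.6 CPM in 92-1 and did not separate from DMSO in the other lines. Its effects were -2.38 ± 0.27 (SE), 0.13 ± 0.25 in MEL202 and -0.20 ± 0.25 in MP41. At 24 h it had reached -6.87 in 92-1 and was called lower in the others too, at -1.64 and -1.61. C1orf116 had effects of -3.68 ± 0.30 (SE) in 92-1 and -1.43 ± 0.28 in MP41, both called, and of -0.50 ± 0.23 in MEL202, where the groups overlapped.

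PCDH1, a protocadherin, fell from 22.8, 13.0 and 12.3 CPM to 0.65, 0.65 and 0.39 CPM in 92-1 and from 61.4, 52.1 and 37.6 CPM to 11.6, 19.7 and 8.32 CPM in MEL202. In MP41 it went from 9.43, 10.3 and 9.63 CPM to 5.55, 5.89 and 4.83 CPM, without overlap, and the effect of -0.86 ± 0.30 (SE) was not called in the joint fit but was with MP41 fitted alone (adjusted p = 0.0121), against -4.78 ± 0.37 in 92-1 and -1.93 ± 0.29 in MEL202. The difference among lines had an adjusted p of 0.000874 (edgeR). NEDD9, a scaffold of focal adhesions, and KLHL30 were, like SOX10, called in all 3 lines, and NEDD9 fell by 3.00 ± 0.21 (SE) in 92-1, by 1.15 ± 0.19 in MEL202 and by 1.14 ± 0.18 in MP41. TNS3, which links integrins to actin, was called in 92-1 and in neither other line in the joint fit, though in MP41 when fitted alone (adjusted p = 0.0498, edgeR), at -2.85 ± 0.25 (SE), against -0.54 ± 0.23 and -0.74 ± 0.23. The list of 21 matrix and adhesion genes gave 2 higher and 2 lower calls in 92-1, none in the other lines and no member that differed among lines in the joint fit, beside 2.29% and 5.68% of all genes called in 92-1. In the fit of 92-1 and MP41 alone, 2 of its 18 genes with a value had a more negative effect in 92-1 and 2 a more positive one, beside 4.93% and 2.36% of all genes.

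The stress gene CHAC1, a glutathione-degrading enzyme induced by the factor ATF4, fell from 44.0, 40.9 and 40.4 CPM to 5.97, 9.19 and 7.17 CPM in 92-1. In MP41 its groups overlapped, between 15.6 and 20.01 CPM, and in MEL202 it stood at 21.4, 18.6 and 29.5 CPM with DMSO and 9.84, 17.6 and 19.4 CPM with FHT-1015. Its effects were -2.49 ± 0.24 (SE), -0.57 ± 0.23 in MEL202 and -0.10 ± 0.23 in MP41 (adjusted p = 0.00177, edgeR), and at 24 h only 92-1 was called lower, at -3.37. SESN2, a sensor of leucine that p53 and ATF4 both induce, fell from 12.8, 12.6 and 14.3 CPM to 3.59, 5.13 and 5.13 CPM in 92-1, while MP41 kept overlapping groups between 41.5 and 47.8 CPM. Its effects were -1.52 ± 0.19 (SE), -0.35 ± 0.17 and -0.02 ± 0.17 (adjusted p = 0.0122, edgeR). The SESN2 call was lost without 2 of the 18 libraries, with an adjusted p of up to 0.0635. Of 15 ATF4 genes tested, 3 were called lower in 92-1, 1 in MEL202 and 0 in MP41, and of 17 p53 targets 5, 3 and 0, beside 5.68%, 1.32% and 0.107% of all genes called lower. No member of either list was called higher in the joint fit. The median effects of the ATF4 list were -0.23, -0.20 and -0.09. With 92-1 fitted alone, CHAC1, SESN2, TRIB3 and STC2 passed the test with negative effects. DDIT3 (adjusted p = 0.00101, edgeR) and ATF4 itself (0.048) passed with positive ones, 1.10 ± 0.39 (SE) and 0.32 ± 0.23 in the joint fit.

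For 14 of the 34 genes, all lower, the effect met the stricter rule of being confined to 92-1: expressed at 1 CPM or more in both other lines, with a 95% interval there inside -1 to 1 on the log2 scale. They were SS18L1, PFKFB2, PLAT, NINJ1, JPH1, EIF4ENIF1, ELFN2, WDR47, SUSD5, SAMD4A, FAM84B, RHPN2 and the long noncoding RNAs LINC00511 and AL391422.4. With each line fitted alone the interval still met the limit for all 14 in MP41 and for 9 in MEL202. NINJ1, a membrane protein of plasma membrane rupture, fell from 31.9, 26.3 and 28.5 CPM to 6.62, 8.27 and 7.96 CPM in 92-1, and its interval was -0.56 to 0.18 in MEL202 and -0.65 to 0.09 in MP41. PLAT, the tissue plasminogen activator, fell from 59.8, 57.3 and 48.7 CPM to 14.5, 16.5 and 13.9 CPM in 92-1, with intervals of -0.94 to -0.18 in MEL202 and -0.78 to -0.01 in MP41. Both intervals of PLAT exclude zero, so confined means small elsewhere, not absent. CIART, a repressor of the circadian clock outside this set of 14, had an effect of -2.03 ± 0.46 (SE) in 92-1 and estimates of 0.88 ± 0.31 and 1.07 ± 0.38 in the other lines. LINC00511 fell by 1.73 ± 0.22 (SE) in 92-1 and had estimates of 0.34 ± 0.22 and 0.32 ± 0.21 in the others. EIF4ENIF1, which carries the cap-binding protein eIF4E into the nucleus, had effects of -1.30 ± 0.14 (SE) in 92-1, -0.14 ± 0.14 in MEL202 and -0.05 ± 0.14 in MP41. PLAT stayed in the class of 34 with 3 of the 18 left-out libraries, and FAM84B and RHPN2 with 2, whereas SS18L1, PFKFB2, JPH1, NINJ1 and LINC00511 stayed with all 18.

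**Figure D4:**
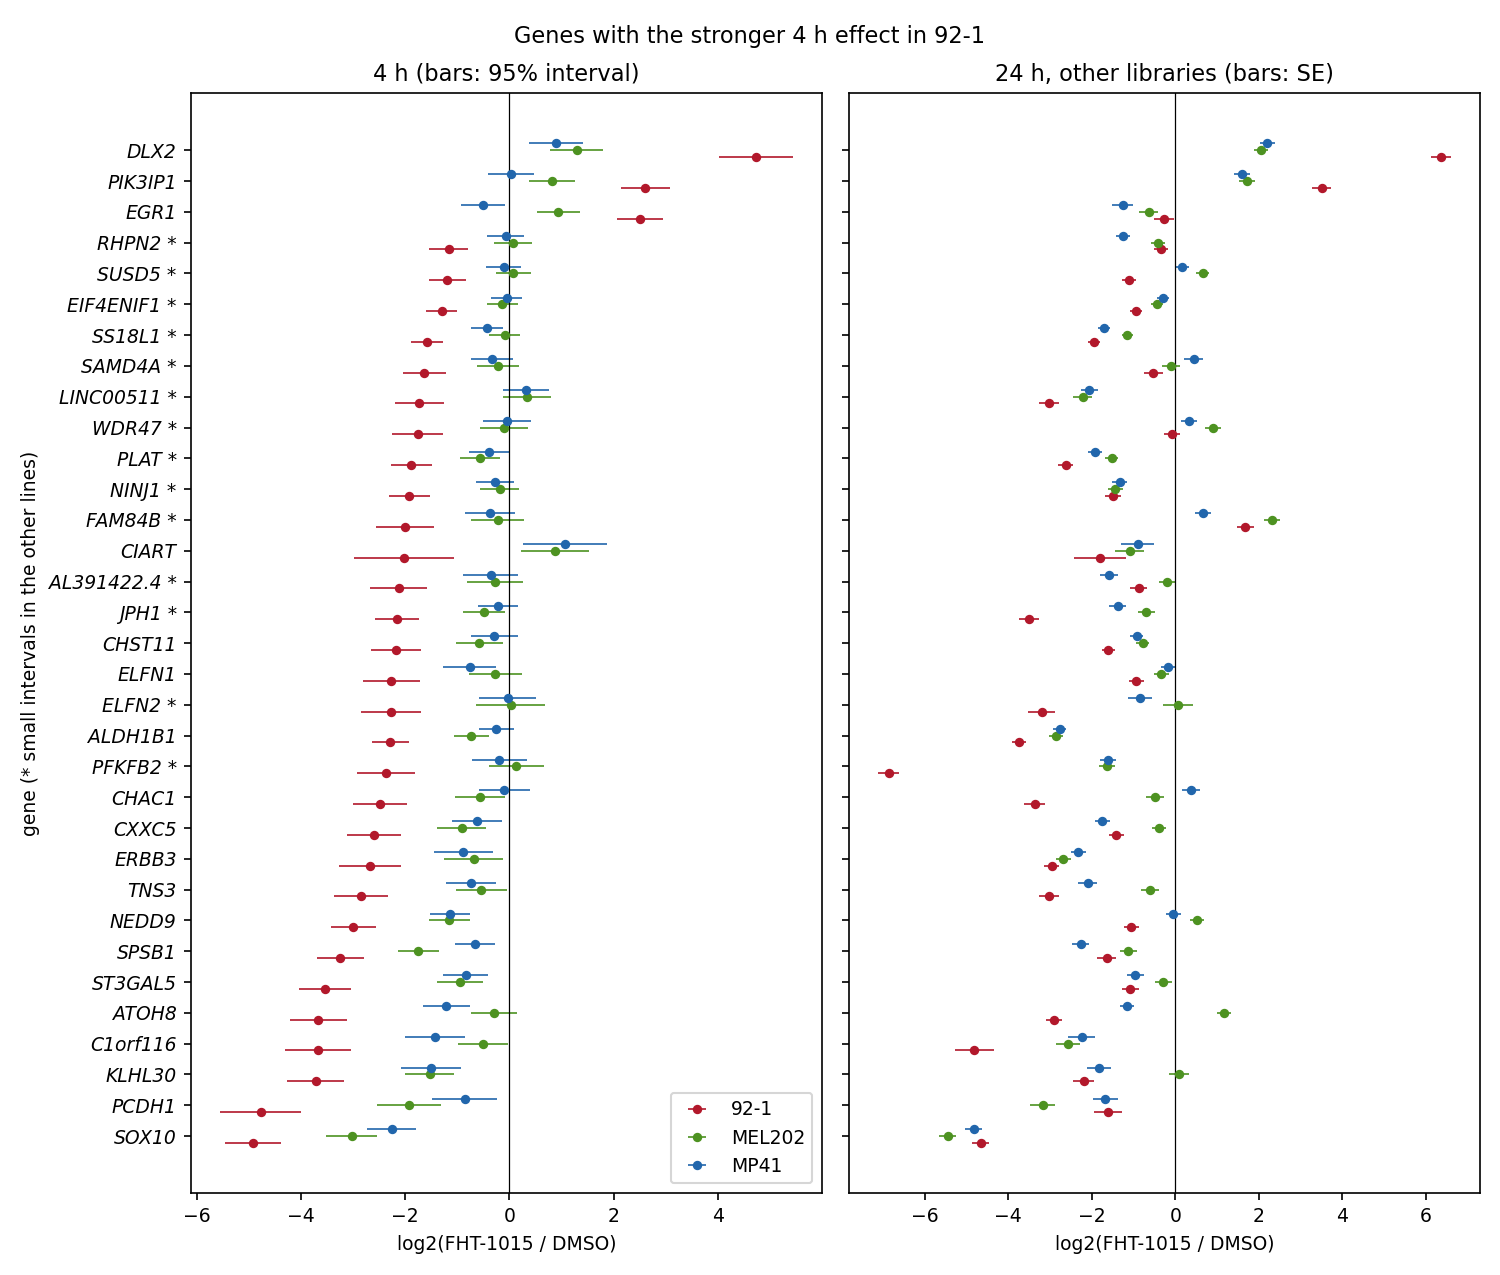
Log2 effect of FHT-1015 on 33 of the 34 genes stronger in 92-1, at 4 h with 95% intervals (left) and at 24 h in separate libraries with SE (right), for 92-1 (red), MEL202 (green) and MP41 (blue); * marks the 14 genes with small intervals in both other lines. At 4 h 92-1 lies furthest from zero by selection, and at 24 h the 3 lines lie within 1 log2 unit of each other for SOX10, ERBB3 and NINJ1, while FAM84B is above zero in all 3.

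SS18L1, an alternative subunit of BAF complexes, differed among lines in the joint fit, alone among the 29 subunits tested. In the fit of 92-1 and MP41 alone DPF1, DPF3 and BCL11A differed as well (adjusted p = 0.00414, 0.011 and 0.0131, edgeR). SS18L1 stood at 192, 197 and 194 CPM with DMSO in 92-1, above the 68.5 to 86.7 CPM of MEL202 and the 58.8 to 72.9 CPM of MP41, and at 63.6, 66.2 and 64.6 CPM with FHT-1015, near the treated levels of MEL202 (65.1 to 81.5 CPM) and MP41 (44.9 to 51.8 CPM). The effect was -1.58 ± 0.15 (SE) in 92-1, with intervals of -0.39 to 0.21 in MEL202 and -0.73 to -0.13 in MP41 (adjusted p = 0.00165 for the difference, edgeR). At 24 h it was called lower in all 3 lines, at -1.95, -1.15 and -1.71. The drug targets were not called in any line in the joint fit: SMARCA4 had effects of 0.35 ± 0.24 (SE), 0.33 ± 0.24 and 0.02 ± 0.24, and SMARCA2 of -0.16 ± 0.16, 0.12 ± 0.15 and -0.26 ± 0.16, with adjusted p = 0.982 and 0.91 for a difference among lines. With 92-1 fitted alone SMARCA4 was called higher there, by 0.35 ± 0.09 (SE; adjusted p = 0.0171, edgeR). SMARCA4 stood at 309 ± 16.2 CPM (SD, n = 3) in untreated 92-1, 439 ± 140.2 in MEL202 and 439 ± 28.4 in MP41. SMARCA2 stood at 47.5 ± 0.51, 68.3 ± 13.6 and 51.6 ± 2.44 CPM (SD, n = 3 each). Of 29 BAF subunits tested, 1 was called higher and 3 lower in 92-1, 1 higher in MEL202 and none in MP41. Over all genes, 2.29% were called higher and 5.68% lower in 92-1. The lower ones were SS18L1 and DPF1 and DPF3, subunits with histone-reading domains, and DPF3 stood under 2 CPM in every library.

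Of 18 receptor tyrosine kinases tested, 6 were called lower in 92-1 (ERBB3, FGFR3, DDR1, MET, TYRO3 and ERBB2) and none in the other lines in the joint fit, beside 5.68%, 1.32% and 0.107% of all genes, with median effects of -0.73, -0.07 in MEL202 and -0.25 in MP41. ERBB3 was called lower in MP41 fitted alone. In the fit of 92-1 and MP41 alone, 7 of the 18 had a more negative effect in 92-1, the 6 above and FGFR1, and none a more positive one, beside 4.93% and 2.36% of all genes. MET, the receptor of hepatocyte growth factor, had effects of -1.18 ± 0.22 (SE) in 92-1 and -0.35 ± 0.22 in MP41. IL6R, the interleukin-6 receptor, was called lower in all 3 lines. It went from 39.7, 35.2 and 41.4 CPM to 6.02, 4.71 and 3.75 CPM in 92-1, from 106, 90.2 and 66.0 CPM to 24.1, 26.9 and 16.9 CPM in MEL202 and from 62.4, 62.7 and 61.2 CPM to 23.0, 25.9 and 27.2 CPM in MP41. The effects were -2.995 ± 0.22 (SE), -1.95 ± 0.21 and -1.29 ± 0.20 (adjusted p = 0.0196 for the difference, edgeR; not called without 9 of the 18 libraries, at up to 0.0838). Of the 14 cytokine signalling genes tested, IL6R, SOCS3, NFKBIA and CISH were called lower both in 92-1 and in MEL202, and IL6R in MP41.

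Other lists differed in counts of calls more than in tested differences. Of 23 cell cycle genes, 8 were called lower in 92-1 (5.68% of all genes), among them CDK2 at -1.66 ± 0.20 (SE), CCNE1 at -0.92 ± 0.18 and the inhibitors CDKN1A at -1.27 ± 0.17 and CDKN1C at -2.37 ± 0.39. CDKN1A was called lower in MEL202 too, no cell cycle gene was called in MP41 in the joint fit (CDKN1A and CCND1 were with MP41 fitted alone), and none differed among lines in the joint fit, while 6 had a more negative effect in 92-1 than in MP41 in the fit of those lines alone (4.93% of all genes). CDK2 and cyclin E drive entry into S phase, which the other 2 restrain, so the lowered members act in both directions. Of 19 neural crest regulators, FOXD3, SNAI2 and SOX4 were called higher and TFAP2C and MSX1 lower in 92-1, and SOX4 was called higher in MP41. Over all genes, 2.29% were called higher and 5.68% lower in 92-1, and 0.0474% higher in MP41. TFAP2C, a factor of trophoblast and neural crest, fell from 11.4, 8.16 and 11.96 CPM to 2.64, 1.94 and 3.55 CPM in 92-1, and its groups overlapped in MEL202, between 27.8 and 45.9 CPM, and in MP41, between 0.47 and 1.56 CPM. Its effects were -1.96 ± 0.30 (SE), -0.05 ± 0.27 and -0.16 ± 0.36 (adjusted p = 0.0474, edgeR; not called without 15 of the 18 libraries). The lists of WNT modulators, Gq and protein kinase C signalling, heat shock, interferon-stimulated, and cholesterol synthesis genes had no member that differed among lines in the joint fit. In the fit of 92-1 and MP41 alone, 3 of 13, 2 of 17, 2 of 12, 1 of 16 and 4 of 19 members with a value had a more negative effect in 92-1 (4.93% of all genes), and 2 of the Gq and protein kinase C list a more positive one (2.36%). FDFT1 was the cholesterol gene called lower in 92-1, at -0.78 ± 0.13 (SE).

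A minority of genes changed more in MP41 than in 92-1. In the joint fit these were 4 of the 179: HSPA2, FOXC1, DUSP10 and C1orf61, named after their values were seen, and none was called within MP41. HSPA2, a heat shock protein 70 gene, fell from 258, 243 and 222 CPM to 90.4, 70.4 and 65.9 CPM in 92-1, and in MP41 it had 1, 0 and 1 reads with DMSO and 5, 3 and 8 with FHT-1015, so the MP41 estimate rests on few reads. The fit of 92-1 and MP41 alone gave 49 such genes, of which 23 were called in MP41 fitted alone, 12 higher and 11 lower, and 20 of those were not called in 92-1 fitted alone. NAV3, a microtubule-binding protein, fell from 25.8, 26.8 and 28.6 CPM to 5.88, 7.78 and 9.66 CPM in MP41 and from 35.8, 33.7 and 42.2 CPM to 29.9, 27.3 and 24.9 CPM in 92-1. Fitted alone, its effects were -1.77 ± 0.15 (SE) in MP41 and -0.44 ± 0.12 in 92-1 (adjusted p = 0.000515 for the difference, edgeR). BAMBI rose from 141, 135 and 128 CPM to 281, 239 and 220.4 CPM in MP41, by 0.87 ± 0.10 (SE) with the line alone, and stood at 74.2, 75.4 and 56.0 CPM with DMSO and 68.7, 61.9 and 49.8 CPM with FHT-1015 in 92-1. FOXC1, a forkhead factor of eye and neural crest development, rose with the line alone by 0.93 ± 0.15 (SE), from 41.9, 31.6 and 44.9 CPM to 84.2, 61.8 and 80.0 CPM in MP41, and in 92-1 its groups overlapped between 7.76 and 10.5 CPM. In MEL202 it went from 30.1, 22.3 and 21.7 CPM to 35.5, 42.5 and 47.2 CPM. DUSP10, a phosphatase of stress kinases, went in MP41 from 12.04, 10.3 and 10.8 CPM to 2.07, 4.58 and 5.26 CPM.

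TRIM63, a ubiquitin ligase and known target of MITF, was the gene whose effect differed between MEL202 and MP41. It went from 37.3, 25.4 and 43.7 CPM to 7.22, 2.31 and 5.82 CPM in MEL202, from 86.3, 87.3 and 76.8 CPM to 38.9, 45.8 and 38.1 CPM in 92-1, and in MP41 its groups overlapped between 34.3 and 54.2 CPM. The effects were -2.80 ± 0.32 (SE) in MEL202, -1.03 ± 0.29 in 92-1 and 0.10 ± 0.29 in MP41. At 24 h TRIM63 was lower in all 3 lines, at -5.12, -3.95 and -5.69, the largest estimate at 24 h being that of MP41. The difference between MEL202 and MP41 was called for 1 gene without MEL202 FHT-1015 replicate 1 or 2, for 7 without MEL202 DMSO replicate 2, and for 0 without any other library.

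A smaller set responded in all 3 lines: 5 genes were called higher and 14 lower in each. Without 1 library of MP41 the number fell from 19 to between 3 and 8, and without 1 of 92-1 to between 10 and 13. The 5 higher genes of the main fit were NR4A2, NR4A3, DACT1, MYC and MEX3B. NR4A2, an orphan nuclear receptor of the immediate early class, went from 3.79, 4.68 and 6.93 CPM to 36.2, 48.6 and 55.8 CPM in 92-1, from 3.80, 4.60 and 3.92 CPM to 14.0, 13.8 and 11.5 CPM in MEL202 and from 13.5, 8.32 and 9.68 CPM to 55.1, 26.7 and 32.5 CPM in MP41. Its effects of 3.19 ± 0.29 (SE), 1.67 ± 0.29 and 1.86 ± 0.28 did not pass the test of a difference (adjusted p = 0.141, edgeR), but did by limma-voom (adjusted p = 0.00304) and, between 92-1 and MP41, in the fit of those lines alone (adjusted p = 0.0391, edgeR). DACT1, a modulator of WNT signalling, rose by 1.70 ± 0.28 (SE), 1.55 ± 0.22 and 1.08 ± 0.21 from very unlike levels, 0.96 CPM in untreated 92-1, 6.74 CPM in MEL202 and 101.5 CPM in MP41 on average. Of the 14 lower genes, 6 differed among lines, including SOX10, NEDD9, KLHL30, PHACTR1 and IL6R. DUSP27 had 5 to 34 reads with DMSO and at most 3 with FHT-1015 in every line. Of the 19, 14 had their largest effect in 92-1.

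As a set, the genes that fell more in 92-1 had a lower median starting level there, though some, such as SS18L1, started higher. The part of the starting level in the effects was not tested. Over the 31 genes that fell more in 92-1, the median DMSO level was 23.9 CPM in 92-1, 45.7 CPM in MEL202 and 35.5 CPM in MP41, and 92-1 had the highest DMSO level for 8 of them and the lowest for 11. The median level with FHT-1015 was 5.07, 31.02 and 22.4 CPM, and it was lowest in 92-1 for 27 of the 31. The median effects, which the choice of genes fixes, were -2.28, -0.48 and -0.37. Exons of 12 of the 34 genes overlap another gene on the opposite strand, and those of ERBB3 and ELFN2 a gene on the same strand. The deposited counts list ambiguous reads apart from the genes, 9.35 to 11.6% of the reads of a library at 4 h. Reads from such overlaps may therefore be missing from the unstranded counts of these genes.

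Many of these genes were down in the other lines by 24 h. Of the 31, 27 were called lower at 24 h in 92-1 (18.7% of all genes tested at 24 h), 17 in MEL202 (16%) and 22 in MP41 (19.2%), and 15 in all 3 lines. The opposite call, higher at 24 h, was made for 1, 5 and 1 of them. FAM84B was the gene called higher in 92-1 and in MP41, at 1.68 and 0.67, after an effect of -2.001 ± 0.27 (SE) at 4 h in 92-1. Of the 20 lower genes that passed the test in neither other line at 4 h, 9 were called lower at 24 h in both and 6 in neither. Among the 34, the effect still differed among lines for 23 at 24 h (13.4% of all genes) and was still stronger in 92-1 for 12 (2.23%). DLX2 and PIK3IP1 were called higher in all 3 lines at 24 h, at 6.37, 2.06 and 2.21 and at 3.52, 1.73 and 1.60. EGR1 was no longer called in 92-1, at -0.28, and was called lower in MEL202, at -0.64, and in MP41, at -1.26.

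Genes chosen by their 24 h values alone were also examined at 4 h. Of the genes called lower at 24 h in all 3 lines, 1505 were tested at 4 h. Their median effect at 4 h was -0.22 in 92-1, -0.09 in MEL202 and -0.01 in MP41, and 339, 87 and 10 of them were called lower by then (22.5%, 5.78% and 0.664%), beside 5.68%, 1.32% and 0.107% of all genes, which stand in the same order. At 24 h their median effects were -1.20, -1.07 and -1.12. The 944 genes called higher in all 3 lines at 24 h had 4 h medians of 0.17, 0.11 and 0.04, with 83, 26 and 4 called (8.79%, 2.75% and 0.424%, beside 2.29%, 0.723% and 0.0474% of all genes). With each line fitted alone, 587 of the 1505 were called lower at 4 h in 92-1, 0 in MEL202 (87 in the joint fit) and 78 in MP41, beside 16.7%, 0% and 1.73% of all genes, so the order of MEL202 and MP41 turned with the fit. The 92-1 and MP41 effects at 4 h differed in the joint fit with the effect more negative in 92-1 for 79 of the 1505 and less negative for 1. Over all 16863 genes tested the counts were 148 more negative and 31 more positive in 92-1. Among the 944 genes called higher at 24 h, the effect was more positive in 92-1 for 7 and less positive for 4.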

How the data were processed

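The authors deposited read counts per gene, a table of raw counts for each sample with an unstranded column and 2 stranded columns; the unstranded column was used, since reads on the first strand made up 49.7 to 50.1% of the stranded ones. Per the labels' protocols the libraries were made from poly-A RNA, and hg38 and limma are named in the submitters' processing notes; the aligner and counter are not given in the sources used here. Genes with low counts were filtered with filterByExpr, libraries were scaled by TMM, and edgeR 4.0.16 in R 4.3.3 fitted 6 groups with the quasi-likelihood method. An F-test asked whether the FHT-1015 effect was equal in the 3 lines, and each pair of lines was tested in the same fit. P-values were adjusted by Benjamini-Hochberg over 16863 genes and called under 0.05. Levels are TMM-scaled CPM, and SE is the log2 effect divided by the square root of F. Counting noise is largest in the smallest library, with 11394088 reads in genes. Alternatives used DESeq2 1.42.0, limma-voom from limma 3.58.1, other scalings, filters, thresholds, offsets for GC content and length, and left-out libraries. The test was also run on simulated counts that gave all 3 lines the same spread. That run could not show how the unequal spread of the lines acts on the test. Members and gene lists were chosen with earlier results of these data known. Named genes were SOX10, MITF, SMARCA4 and SMARCA2, the genes stronger in 1 line by the largest smaller difference, genes shared by the lines, and the list members in the class or with the smallest p; every other gene was named after its values were seen. Gene positions and exon overlaps came from GENCODE 29 and promoters from RefSeq, matched by gene symbol. The 12 samples of other experiments were not analysed here, and some genes are counted but not reported here by name.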

Additional observations from a re-analysis of the deposited data

Results flagged for a closer look

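The FHT-1015 effect at 4 h differed among lines for 118 genes by edgeR's quasi-likelihood F-test. Among the genes named by rule and reported here, the adjusted p of that test was 0.00021 for EGR1 and for ATOH8, 0.000337 for DLX2 and for ST3GAL5, 0.000628 for SOX10, 0.000767 for PIK3IP1, and 0.000874 for PCDH1. It was 0.00165 for SS18L1, 0.00177 for CHAC1, 0.0122 for SESN2, 0.0196 for IL6R, 0.0212 for ERBB3 and 0.0474 for TFAP2C. The first 9 of these genes kept the call whichever of the 18 libraries was left out. The call was lost without 15 of the 18 libraries for TFAP2C, 9 for IL6R, 6 for ERBB3 and 2 for SESN2, where the adjusted p rose to at most 0.21, 0.0838, 0.0956 and 0.0635.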

How the results depend on the processing

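Several counts of genes moved by over 1.5 times under the alternatives given here. No effect or difference of a gene named by rule that passed the test changed its sign in any alternative, while uncalled ones near zero did, such as that of MITF in MEL202, -0.02 and, without MEL202 DMSO replicate 2, 0.22. The report gives 118 genes differing among lines, 179 between 92-1 and MP41, 39 between 92-1 and MEL202 and 1 between MEL202 and MP41, 34 stronger in 92-1 and none in MEL202 or MP41, and 1345, 344 and 26 changed in 92-1, MEL202 and MP41. Without the filter on low counts, 260 differed among lines, 149 between 92-1 and MEL202 and 15 between MEL202 and MP41, 75, 6 and 1 were stronger in 92-1, MEL202 and MP41, and 62 changed in MP41. DESeq2 gave 370, 340, 171 and 16 in the order of the main counts, 113, 3 and 1 stronger, and 665 changed in MEL202 and 91 in MP41. Limma-voom with quality weights gave 1428 among lines, 1982 between 92-1 and MP41, 0 between MEL202 and MP41, and 6179, 108 and 576 changed. With the 24 h libraries in the same fit the counts were 253, 290, 117 and 3, 86, 1 and 1 stronger, and 592 changed in MEL202 and 67 in MP41. With offsets for GC content and length they were 431, 494, 265 and 11, 176, 2 and 1 stronger, and 2678, 940 and 142 changed. At an adjusted p of 0.01 they were 42, 62, 16 and 0, with 16 stronger in 92-1. Adjusted over the 3 pairs of lines together, 107 genes differed between 92-1 and MP41 and 7 between MEL202 and MP41. Fits of 2 lines alone gave 1172, 7 and 0, and of 1 line alone 4408, 0 and 346 changed. The labels do not say whether same-numbered FHT-1015 and DMSO replicates of a line form pairs. Of 9 correlations between their deviations from the group means, 3 were over 0.1. They ranged from -0.305 to 0.477, the highest for MEL202 replicate 3, and do not settle whether pairs exist. With the replicate block the counts were 122, 181, 47 and 2, with 36, 1 and 1 stronger. The 122 included 89 of the 118 and the 36 included 27 of the 34. Leaving out 1 library gave 45 to 197 among lines, 81 to 294, 16 to 77 and 0 to 7 between pairs, 16 to 61, 0 and 0 stronger, and 829 to 1865, 216 to 741 and 4 to 43 changed. At 24 h, 29, 19 and 24 of the 34 genes were called in the same direction in 92-1, MEL202 and MP41, and 28 to 30, 15 to 22 and 23 to 24 without 1 library. The cause of these shifts was not tested. HSPA2 in MP41 and DUSP27 rest on few reads.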
